A study of Sus scrofa with 32 samples.

Results

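The insulin-like growth factor (IGF) ligands, receptors and binding proteins were followed through 4 compartments of the pig endometrium. The 10 genes were the ligands IGF1 and IGF2, the receptors IGF1R and IGF2R and the binding proteins IGFBP1 to IGFBP6. They were chosen by family and name, with earlier results of these data known. Each symbol matched a single NCBI gene among the 30185 genes counted. The luminal lining (luminal epithelium, LE), the glands (glandular epithelium, GE), the vessels (BV) and the connective tissue between them (stroma, S) had been cut by laser capture microdissection from frozen endometrium of gilts, which are young female pigs, and sequenced after low-input library preparation. All gilts had been synchronised with eCG and hCG. Gilts are named here by the label of their LE library. The 4 pregnant gilts (PL139, PL39, PL41 and PL43) had received semen and the 4 cyclic gilts (CL128, CL40, CL42 and CL78) sperm-free seminal supernatant, and all were slaughtered on Day 14. In the pregnant animals the tissue came from the reddened zones where conceptuses attach, so pregnancy and closeness to a conceptus cannot be told apart. The glands of pregnant gilt PL41 were not analysed here, which leaves n = 3 in pregnant GE and n = 4 in every other group.

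IGF1 and IGF2 are small secreted growth factors that both signal through IGF1R, a receptor tyrosine kinase. IGF2R, the cation-independent mannose 6-phosphate receptor, carries IGF2 to lysosomes and has no kinase. The binding proteins hold the ligands in tissue fluid and either block them or release them near the receptor, and in the uterus the family has long been studied for conceptus growth and attachment.

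The 31 libraries held 2415216 to 7081556 counts, with a median of 3624021, and the 10 genes took 0.0707% to 0.496% of the counts of a library. Levels are CPM values, that is counts relative to library size, after trimmed-mean scaling of all libraries together, listed by gilt in the order given above, and a group mean carries its SD. IGF1 was counted over 11969 exon bases and IGFBP4 over 780 coding bases with no untranslated part, so levels of different genes were compared only per kb of exon. Epithelial markers set LE and GE apart from BV and S. Over 8 epithelial markers the summed level was 2367 to 3344 CPM in LE and 1601 to 1960 CPM in GE, against 2.84 to 479 CPM in BV and S. Vessel markers were higher in BV by median, but libraries of BV and S overlapped. The 7 endothelial markers summed to 1524 to 3012 CPM in BV (median 2801) and 544 to 2770 CPM in S (median 1153). The 7 smooth muscle and pericyte markers summed to 837 to 17325 CPM in BV (median 5818) and 404 to 1782 CPM in S (median 702). The 6 fibroblast markers summed to 36616 to 106304 CPM in S, 25082 to 91087 CPM in BV, 4097 to 16514 CPM in LE and 2877 to 7533 CPM in GE, and none of the 34 markers of the 5 cell type lists was at 0 in any group. The endothelial markers summed to 124 to 1027 CPM in LE (median 704) and 16.2 to 179 CPM in GE (median 36.4). For smooth muscle and pericytes the sums were 171 to 769 CPM in LE (median 558) and 5.76 to 178 CPM in GE (median 16.3). Fibroblast and vessel marker transcripts were thus counted in both epithelial captures, with higher medians in LE than in GE. The part of vessel RNA in differences between LE and GE was not tested. In such bulk samples fewer cells of a type and less RNA per cell cannot be told apart.

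All 10 genes were annotated on Sscrofa11.1. IGF1 lies at chr5:81762027-81909253, IGF2 at chr2:1469183-1496417, IGF1R at chr1:137383623-137691038 and IGF2R at chr1:7369485-7472480. The binding protein genes stand partly in pairs. IGFBP2 (chr15:118822092-118850985) and IGFBP5 (chr15:118861816-118877787) face each other across 10830 bases, and IGFBP3 (chr18:50002921-50009425) and IGFBP1 (chr18:50018487-50022799) across 9061 bases. IGFBP4 lies at chr12:21966524-21980043 and IGFBP6 at chr5:18352884-18357225. Genes annotated on the opposite strand overlap IGF1 and IGF1R, and whether strand was used in counting is not given in the sources used here. Summed over all libraries, these neighbours held at most 0.18% of the counts of IGF1 and 1.14% of those of IGF1R.

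The 250 bases before the annotated start are shown for IGFBP2, the member that differed most between pregnant and cyclic gilts, and for IGF1R, the signalling receptor, whose log2 fold change of pregnant over cyclic gilts was above 0 in all 4 compartments. The sequence is that of Sscrofa11.1 with RefSeq starts, from chr15:118821842-118822091 on the plus strand for IGFBP2 and from chr1:137691039-137691288 on the minus strand for IGF1R. Capitals mark every match, on either strand, to the GC box GGGCGG, the TATA box TATAAA, the AP-1 site TGANTCA, the nuclear receptor half-site AGGTCA, the progesterone or glucocorticoid receptor half-site AGAACA and the STAT site TTCNNNGAA.
IGFBP2: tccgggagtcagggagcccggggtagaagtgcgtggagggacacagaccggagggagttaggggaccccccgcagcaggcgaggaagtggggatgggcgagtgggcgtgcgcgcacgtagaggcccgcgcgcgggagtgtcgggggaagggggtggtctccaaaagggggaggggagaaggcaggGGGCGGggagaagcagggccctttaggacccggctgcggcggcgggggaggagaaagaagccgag
IGF1R: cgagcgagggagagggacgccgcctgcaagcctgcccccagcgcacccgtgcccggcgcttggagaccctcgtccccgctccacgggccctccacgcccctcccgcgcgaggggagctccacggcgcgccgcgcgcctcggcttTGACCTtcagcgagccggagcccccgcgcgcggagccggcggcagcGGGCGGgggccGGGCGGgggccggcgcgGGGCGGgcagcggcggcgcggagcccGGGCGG
IGFBP2 held 1 GC box, 60 to 65 bases before its start, and none of the other motifs. IGF1R held 4 GC boxes and 1 nuclear receptor half-site, which reads TGACCT on the strand shown. Among the 19561 windows of this length before protein-coding genes on assembled chromosomes, 45.9% held a GC box, 12.2% the nuclear receptor half-site, 10.3% the AGAACA half-site, 9.76% the TATA box, 6.11% the STAT site and 5.27% the AP-1 site. The GC content was 71.2% for IGFBP2 and 83.6% for IGF1R, beside a median of 57.6% over these windows. These matches describe letters in the windows and say nothing of which factor bound there.

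Which compartments carried the family was compared first, in 1 edgeR quasi-likelihood fit with the gilt as a block, over 13887 genes. IGF1, IGFBP4 and IGFBP5 were higher in S and BV than in both epithelia, and IGF2 had its highest mean in BV. IGF1R was higher in both epithelia, less firmly against BV than against S, and IGF2R was nearly even. Of the 9 members in this fit, 4 were called between LE and GE at a false discovery rate of 1% (41.4% of all genes were called), 6 between LE and BV (49.2%), 6 between LE and S (50.6%), 9 between GE and BV (58.3%), 8 between GE and S (59.3%) and none between BV and S (7.19%). Between BV and S DESeq2 called 1 member (10.3% of all genes), and an unadjusted p under 0.05 was reached by 5 members and by 3818 of the 13887 genes. IGFBP1 was in none of the filtered tables and had no test.

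**Figure D1:**
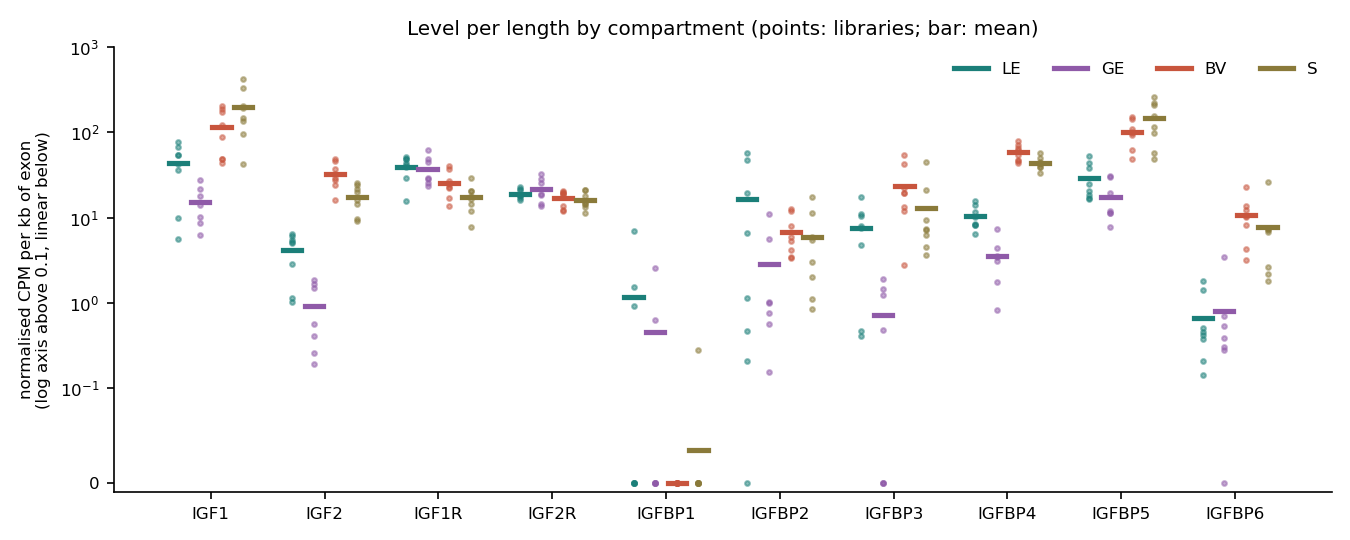
Normalised CPM per kb of exon (log axis above 0.1, linear below) for the 10 genes in LE, GE, BV and S, with 1 point per library and a bar at the mean over gilts. IGF1 and IGFBP5 reached means of 197 and 145 CPM per kb in S, IGF1R stayed between 17.3 and 39.6, and IGFBP1 was near 0 throughout.

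IGF1 had the highest mean per length of the family in S, BV and LE, within the spread of IGFBP5 in S and BV and of IGF1R in LE. Its mean over gilts was 197 ± 125 CPM per kb in S (n = 8), 114 ± 66.5 in BV (n = 8), 43.2 ± 25.2 in LE (n = 8) and 15.2 ± 7.72 in GE (n = 7). It was lower in LE than in S in 8 of 8 gilts and lower in GE than in S in 7 of 7, with log2 differences of -2.21 ± 0.29 and -3.54 ± 0.33 (SE, edgeR adjusted p = 1.3e-06 and 7.5e-09). Against BV it was lower in LE in 7 of 8 gilts (-1.47 ± 0.28, adjusted p = 1.5e-04). In pregnant gilts alone this difference was -1.12 and not called (adjusted p = 0.029). LE exceeded GE by 1.32 ± 0.30 (adjusted p = 9.6e-04), in 5 of 7 gilts, and BV and S did not separate (-0.75 ± 0.28, adjusted p = 0.079). The excess of LE over GE lost its call without gilt PL39 or PL43 and in cyclic gilts alone, where it was 0.96 (adjusted p = 0.058). The fibroblast markers of the epithelial captures stand beside these levels. IGF1 amounted to 0.661% to 7.9% of the summed fibroblast markers in LE libraries, 1.59% to 6.47% in GE libraries and 1.21% to 6.69% in S libraries, and the part of fibroblast RNA in the epithelial values was not tested.

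IGF2 was low in both epithelia, and lowest in GE. Its level was 239 ± 80.2 CPM in BV, 129 ± 45.5 in S, 30.4 ± 15.8 in LE (n = 8 each) and 6.74 ± 5.26 in GE (n = 7). BV exceeded S in 7 of 8 gilts, a difference of 0.92 ± 0.33 on the log2 scale that was not called (adjusted p = 0.067), whereas GE lay below BV by a log2 difference of -5.19 ± 0.44 (adjusted p = 2.5e-09) and LE above GE by 2.11 ± 0.41 (adjusted p = 2.1e-04). Per length IGF2 stayed below IGF1 in each compartment, at 32.6 against 114 CPM per kb in BV and 0.92 against 15.2 CPM per kb in GE.

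IGF1R was higher in LE than in BV and S. It averaged 489 ± 147 CPM in LE and 461 ± 180 CPM in GE, against 316 ± 112 CPM in BV and 214 ± 79 CPM in S. It was higher in LE than in BV and in S in 8 of 8 gilts each (log2 differences 0.65 ± 0.16 and 1.22 ± 0.16, adjusted p = 0.0015 and 1.6e-06), and LE and GE did not separate (0.04 ± 0.17, adjusted p = 0.84). BV exceeded S in 8 of 8 gilts without a call at 1% (0.57 ± 0.16, adjusted p = 0.019). The IGF2 clearance receptor IGF2R was nearly even, at 163 ± 54.3 CPM in GE, 144 ± 18.3 in LE, 127.6 ± 26.9 in BV and 122 ± 26.8 in S. Only its excess in GE over BV (0.37 ± 0.11, adjusted p = 0.0071) and over S (0.44 ± 0.11, adjusted p = 0.0020) was called, and in cyclic gilts alone neither was, at adjusted p of 0.23 and 0.43. Without gilt PL39, CL40 or PL43 both IGF2R calls were lost, and without gilt CL42 or CL78 the call against BV. The IGF1R call of LE against BV was lost without gilt PL43. It was also lost in cyclic gilts alone (edgeR adjusted p = 0.032) and in pregnant gilts alone (adjusted p = 0.016). In GE, IGF1R exceeded BV in 6 of 7 gilts (0.60 ± 0.17, adjusted p = 0.0031) and S in 7 of 7 (1.17 ± 0.17, adjusted p = 2.8e-06). The IGF1R call of GE against BV was lost without gilt PL39, CL42 or PL43. In cyclic gilts alone this difference was 0.36 (adjusted p = 0.17) and not called.

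IGFBP5, a binding protein that sticks to extracellular matrix, was the most abundant binding protein per length in each compartment, at 145 ± 78.1 CPM per kb in S, 100.7 ± 35.7 in BV, 29.1 ± 14.1 in LE and 17.4 ± 9.49 in GE. IGFBP4, a mostly inhibitory binding protein that the protease PAPPA cuts, followed in BV and S at 58.7 ± 12.5 and 43.6 ± 7.31 CPM per kb and fell to 10.3 ± 3.19 in LE and 3.50 ± 2.10 in GE. IGFBP4 had the tightest order of the family, with GE below LE in 7 of 7 gilts, LE below S in 8 of 8 and S below BV in 8 of 8. Its log2 differences were 1.55 ± 0.20 for LE minus GE, -2.10 ± 0.16 for LE minus S and 0.41 ± 0.15 for BV minus S, and the last was not called (adjusted p = 0.064).

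IGFBP6, which prefers IGF2, and IGFBP3, the main carrier in serum, were likewise higher in BV and S than in GE. IGFBP6 averaged 16.1 ± 9.31 CPM in BV and 11.6 ± 11.7 in S against 1.01 ± 0.91 in LE and 1.22 ± 1.78 in GE, and every BV and S library exceeded the LE and GE library of the same gilt. IGFBP3 averaged 25.5 ± 18.4 CPM in BV, 14.3 ± 15.2 in S, 8.28 ± 6.32 in LE and 0.80 ± 0.88 in GE, and LE differed from GE (3.74 ± 0.94, adjusted p = 0.0021) but was not called against BV or S. The IGFBP3 call was lost without gilt PL39 or CL42. IGFBP2 was lower in GE than in BV in 6 of 7 gilts (-1.87 ± 0.54, adjusted p = 0.0044). This difference was -3.10 in cyclic gilts alone (adjusted p = 0.0021) and -0.64 in pregnant gilts alone (adjusted p = 0.48), and the call was lost without gilt CL128, PL39 or CL78. LE was also read beside BV in each group alone. Averaged over the groups, IGFBP2 lay lower in LE than in BV by a log2 difference of -0.85 ± 0.54 (adjusted p = 0.18). In cyclic gilts alone this difference was -3.69 (adjusted p = 0.0013). In pregnant gilts alone IGFBP2 was higher in LE by 2.0, which was not called at 1% (adjusted p = 0.013). These separate values do not test whether the groups differed.

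Pregnant and cyclic gilts were then compared within each compartment, which asks how the family stood at the time of conceptus attachment. IGFBP2 rose in LE, and it was the single call among 8 members tested in LE at a false discovery rate of 1%, where 3.32% of all genes were called. At the p-value that this rate set in LE, no member was called of 6 in GE (0.748% of all genes), of 9 in BV (1.86%) or of 9 in S (0.293%). An unadjusted p under 0.05 was reached by 3 LE members, 5 GE members, 1 BV member and 4 S members, and by 26.9%, 23.0%, 28.5% and 14.5% of all genes in the same order. The median log2 fold change of the members tested was 0.62 in LE, 1.09 in GE and 0.19 in S, beside medians of all genes between -0.01 and 0.00. In BV the members' median was -8.6e-05, with 4 members above 0 and 5 below. The other tools called more. The edgeR generalised linear model with robust dispersions called 2 LE members (11.8% of all genes), 6 GE members (6.66%), 1 BV member (11.0%) and 2 S members (3.16%). DESeq2 called 1 LE member (11.2%), 4 GE members (6.64%), no BV member (8.5%) and 1 S member (2.6%).

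**Figure D2:**
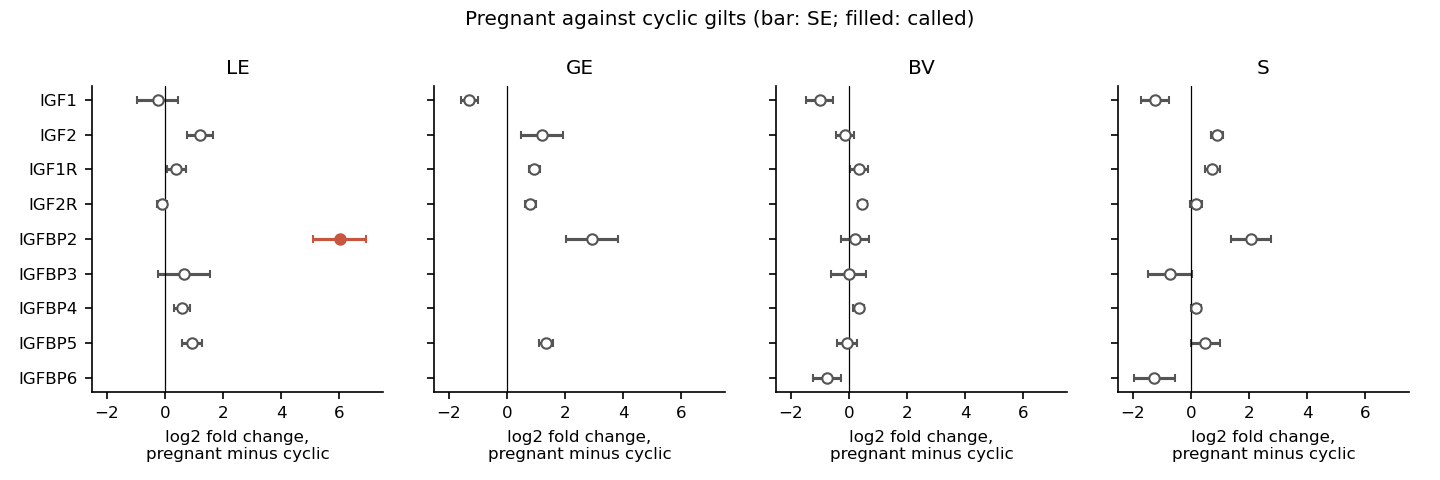
Log2 fold change of pregnant minus cyclic gilts for each member in the filtered table of LE, GE, BV and S, with SE bars and the called value filled. IGFBP2 in LE, at 6.02 with an SE of 0.91, was the single call, and IGF1 lay below 0 in all 4 compartments.

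IGFBP2, a binding protein that also contacts integrins at the cell surface, was nearly absent from cyclic LE and present in all pregnant LE libraries. Cyclic LE held 0, 0.655, 0.285 and 1.59 CPM, which is 11 counts in all, and pregnant LE held 78.2, 65.9, 9.14 and 26.9 CPM, which is 659 counts. The groups did not overlap, and the lowest pregnant library, of gilt PL41, exceeded the highest cyclic library, of gilt CL78. The log2 fold change was 6.02 ± 0.91 (SE, edgeR quasi-likelihood, adjusted p = 0.0049), and the ratio of the pooled CPM was 55.0 with an exact 95% interval of 30.5 to 111 that covers counting error only. Leaving out single libraries kept the log2 fold change between 5.59 and 6.98. The call was lost when gilt CL40, CL42, PL139, PL39 or PL43 was left out, at adjusted p of 0.012 to 0.022, while the share of all genes called fell to between 0.842% and 1.15%.

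The mean IGFBP2 of pregnant GE, S and BV lay below that of pregnant LE and above the cyclic mean of the same compartment. In pregnant gilts alone the excess of LE was called against GE (edgeR adjusted p = 0.0058). It was not called against BV (adjusted p = 0.013) or S (adjusted p = 0.064). GE held 0.216, 1.38, 1.41 and 1.06 CPM in cyclic gilts and 15.3, 0.786 and 7.77 CPM in pregnant gilts PL139, PL39 and PL43, so that gilt PL39 stayed within the cyclic range (log2 fold change 2.94 ± 0.89, adjusted p = 0.11). S held 1.16, 2.80, 7.65 and 1.54 CPM in cyclic and 4.21, 24.3, 8.19 and 15.7 CPM in pregnant gilts, which overlapped (2.08 ± 0.69, adjusted p = 0.23). The model with robust dispersions called IGFBP2 in both, at 2.93 in GE (adjusted p = 0.0062) and 2.36 in S (adjusted p = 0.0044). In BV the means were 8.83 ± 5.36 and 10.1 ± 5.50 CPM (0.22 ± 0.49). The test of whether the pregnancy effect differed between compartments called no member at 1% in the joint edgeR fit, where 1.94% of all genes were called, and an unadjusted p under 0.05 was reached by 2 members and by 3122 of the 13887 genes. Differences between single pairs of compartments were to be read only for members that this test called. IGFBP2 came nearest (adjusted p = 0.015), followed by IGF2R (adjusted p = 0.062), and leaving out single gilts moved the adjusted p of IGFBP2 between 0.014 and 0.058, above 0.05 without gilt CL42 or PL43.

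**Figure D3:**
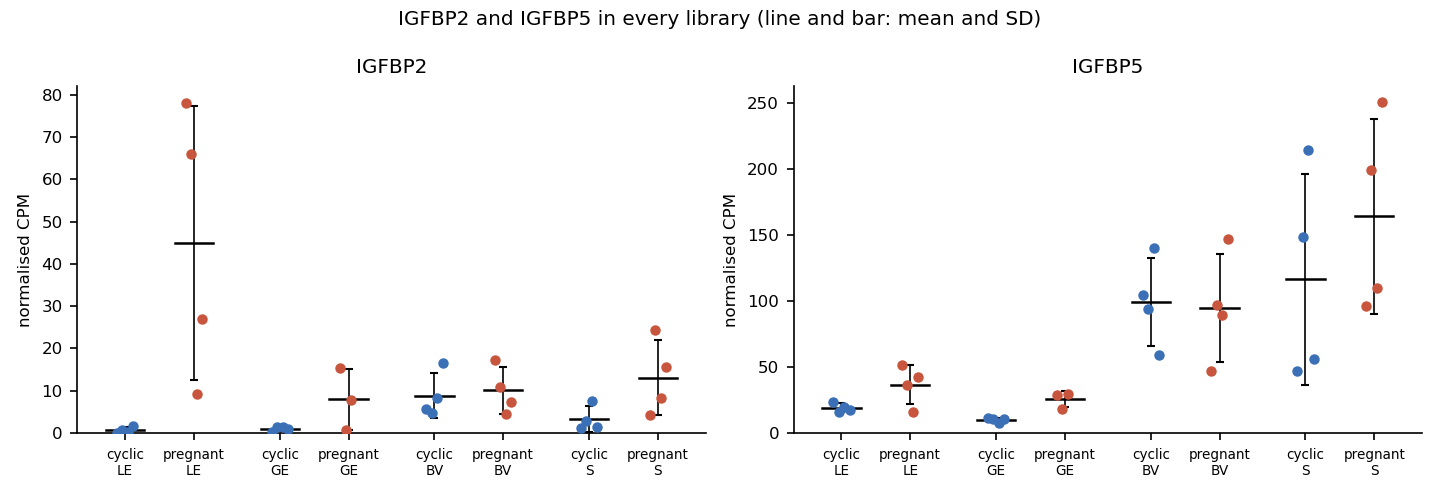
Normalised CPM of IGFBP2 and IGFBP5 in every library of the 8 groups, with the mean and SD. IGFBP2 in pregnant LE ran from 9.14 to 78.2 CPM, above all 4 cyclic LE libraries, and IGFBP5 in pregnant GE lay above cyclic GE at a level far under BV and S.

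IGFBP1, a decidual product in women and known in ruminants as a marker of the attaching uterus, was counted in pregnant libraries alone. No cyclic library of any compartment held a count. Pregnant LE held 3, 4, 0 and 18 counts in gilts PL139, PL39, PL41 and PL43 and pregnant GE held 11, 2 and 0 counts in gilts PL139, PL39 and PL43, while BV held none and S 1. With the cyclic group as a whole set at a floor of 3 counts, the pooled pregnant level was 7.65-fold that floor in LE and 6.18-fold in GE. These ratios leave out the counting error of the pregnant libraries and the spread between gilts. Gilt 43 gave most counts in LE and gilt PL139 most in GE, the gene was in none of the filtered tables, and no test was made.

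IGFBP5 was higher in each pregnant GE library than in any cyclic one. Cyclic GE held 11.5, 10.8, 7.47 and 10.8 CPM and pregnant GE 29.1, 18.6 and 29.6 CPM. The log2 fold change was 1.34 ± 0.24 (adjusted p = 0.045), which misses the p-value of 3.3e-04 set in LE and passes in DESeq2 (adjusted p = 3.2e-04). In the same libraries the summed endothelial markers ran from 16.2 to 44.9 CPM in cyclic and 18.1 to 179 CPM in pregnant gilts, with a median log2 fold change of 1.07 over the 5 of 7 tested. The summed leukocyte markers ran from 18.4 to 25.6 CPM and from 71.0 to 108 CPM, with a median of 1.75 over the 3 of 6 tested. No marker of either list was called, and their part in the GE values was not tested. In LE the cyclic libraries held 23.8, 16.2, 19.97 and 18.0 CPM and the pregnant ones 51.4, 36.9, 16.3 and 42.6 CPM, with gilt PL41 among the cyclic values (0.94 ± 0.33, adjusted p = 0.10). In BV and S the log2 fold changes were -0.06 ± 0.33 and 0.50 ± 0.50.

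The 3 other binding proteins gave no call. IGFBP4 went from 6.49 ± 1.22 to 9.63 ± 2.53 CPM in LE, from 40.6 ± 6.21 to 51.0 ± 10.6 CPM in BV and from 32.0 ± 5.22 to 36.1 ± 6.13 CPM in S (n = 4 each, adjusted p of 0.20, 0.26 and 0.69). IGFBP6 went from 20.2 ± 9.95 to 11.9 ± 7.55 CPM in BV and from 16.3 ± 15.5 to 6.93 ± 4.57 CPM in S (log2 fold changes -0.76 ± 0.48 and -1.25 ± 0.71), and cyclic gilt CL128 held the highest IGFBP6 of its group in all 4 compartments. IGFBP3 went from 25.5 ± 14.4 to 25.4 ± 24.2 CPM in BV, and in S its cyclic mean of 17.9 ± 20.9 CPM rested on gilt CL78, at 49.0 CPM against 4.01 to 10.4 CPM in the other 3. Without gilt CL78 its log2 fold change in S turned from -0.73 to 0.53.

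**Figure D4:**
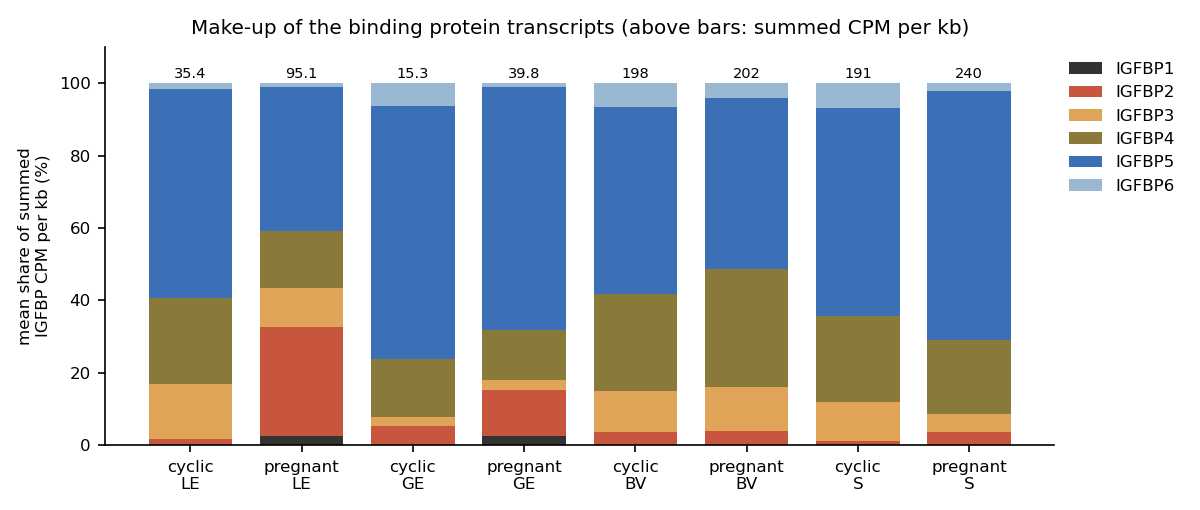
Mean share (%) of each binding protein in the summed IGFBP CPM per kb of the 8 groups, with the mean summed level above each bar. IGFBP5 made up the largest mean share in all groups, and IGFBP2 went from 1.57% in cyclic to 30.3% in pregnant LE.

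Summed per kb, the binding proteins of LE stood at 35.4 ± 7.83 CPM per kb in cyclic and 95.1 ± 34.2 in pregnant gilts. In GE the sums were 15.3 ± 3.39 and 39.8 ± 10.1, in BV 198 ± 45.3 and 202 ± 28.4, and in S 191 ± 69.5 and 240 ± 80.7 CPM per kb. The makeup of LE differed between the groups. IGFBP2 took 0% to 4.26% of the sum in cyclic LE and 13.5% to 45.9% in pregnant LE, while IGFBP5 took 48.8% to 68.8% and 32.1% to 49.2%. These shares count transcripts over short gene models, and no test was made on them.

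IGF1 was lower in pregnant gilts in all compartments on average, and apart in GE alone. Cyclic GE held 257, 214, 334 and 166 CPM and pregnant GE 75.0, 104 and 122 CPM, with no overlap (log2 fold change -1.29 ± 0.28, adjusted p = 0.058). The quasi-likelihood test made no call, and DESeq2 (adjusted p = 0.0012) and the robust model (adjusted p = 9.2e-04) called it. The summed fibroblast markers of GE overlapped, at 2877 to 7533 CPM in cyclic and 3619 to 6561 CPM in pregnant libraries. IGF1 was 3.41% to 6.47% of that sum in cyclic and 1.59% to 2.57% in pregnant GE. In S, IGF1 was 2.38% to 6.69% of the same sum in cyclic and 1.21% to 2.88% in pregnant libraries. The part of fibroblast RNA in the GE values was not tested.

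In S, IGF1 was 1781, 3988, 5040.5 and 2451 CPM in cyclic and 514, 1141, 2303 and 1642 CPM in pregnant gilts, which overlapped (-1.23 ± 0.47, adjusted p = 0.29). In BV the cyclic libraries held 2238, 2066, 2432 and 580.5 CPM and the pregnant ones 524, 587, 1454 and 1046 CPM (-1.01 ± 0.45, adjusted p = 0.18), and gilt CL78 lay among the pregnant values. The robust model called IGF1 in BV (-1.19, adjusted p = 0.010), at the p-value that its rate of 1% set in LE. DESeq2 did not call it there (adjusted p = 0.11). LE ranged from 119.9 to 913 CPM in cyclic and from 67.9 to 656 CPM in pregnant gilts (-0.25 ± 0.70), and pregnant gilt PL139 had the lowest IGF1 of its group in all 4 compartments. The BV captures also differed in makeup. The 7 smooth muscle and pericyte markers summed to 5496 to 17325 CPM in cyclic and 837 to 7203 CPM in pregnant BV, and the 8 epithelial markers to 2.84 to 49.8 and 173 to 306 CPM, and their part in the BV values was not tested.

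**Figure D5:**
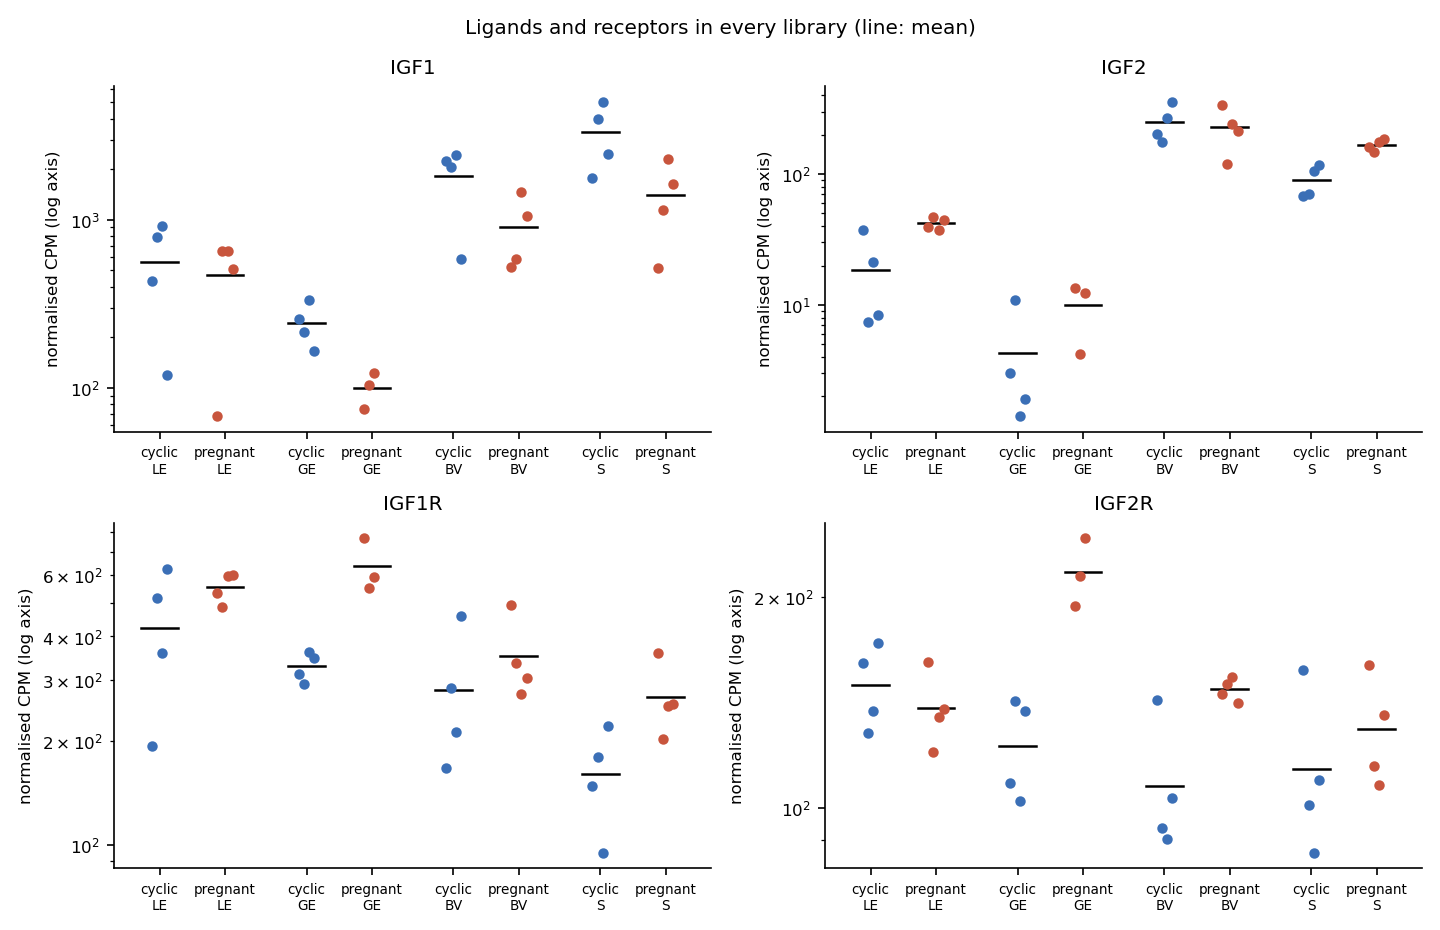
Normalised CPM (log axis) of IGF1, IGF2, IGF1R and IGF2R in every library of the 8 groups, with a line at the mean. IGF1 in pregnant GE, at 75.0 to 122 CPM, lay below cyclic GE, and IGF2 in pregnant S, at 148 to 185 CPM, above cyclic S.

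IGF2 was higher in pregnant S and LE without overlap and without a call in the quasi-likelihood test. S held 67.7, 70.4, 106 and 117 CPM in cyclic and 160, 148, 175 and 185 CPM in pregnant gilts (0.89 ± 0.20, adjusted p = 0.11), and DESeq2 called it (adjusted p = 0.0062). LE held 37.2, 7.43, 21.1 and 8.42 CPM in cyclic and 39.6, 46.8, 37.6 and 44.8 CPM in pregnant gilts (1.22 ± 0.45, adjusted p = 0.12), so that cyclic gilt CL128 nearly reached the pregnant values. The model with robust dispersions called both, at 0.89 in S (adjusted p = 0.0055) and 1.52 in LE (adjusted p = 7.3e-04), and IGF2 in GE as well (1.86, adjusted p = 0.015) at the p-value that its rate of 1% set in LE. GE held 3.02, 10.8, 1.41 and 1.91 CPM in cyclic and 13.6, 4.19 and 12.2 CPM in pregnant gilts, which overlapped (1.23 ± 0.72). In BV the means were 251 ± 80.9 and 227 ± 90.0 CPM.

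The balance of the ligands was read as IGF2 counts per 100 IGF1 counts, a ratio within a library that needs no scaling between libraries. In S it was 3.80, 1.76, 2.10 and 4.79 in cyclic and 31.2, 12.9, 7.61 and 11.3 in pregnant gilts, with no overlap. The mean log2 ratio differed by 2.25 (two-sided exact permutation p = 0.029, the smallest that 4 against 4 allows, and 0.11 after Benjamini-Hochberg adjustment over the 4 compartments). The difference was 1.84 in LE (exact p = 0.17), 2.79 in GE (exact p = 0.11, where the smallest possible is 0.057) and 0.76 in BV (exact p = 0.37). The groups overlapped in LE, GE and BV. In LE the ratio was 8.67, 0.935, 2.31 and 7.02 in cyclic and 58.3, 7.21, 5.73 and 8.85 in pregnant gilts. In all compartments gilt PL139 had the highest ratio among pregnant gilts.

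Both receptors were higher in pregnant GE in each library. IGF1R was 311, 291, 361 and 348 CPM in cyclic and 768, 553 and 596 CPM in pregnant GE (0.95 ± 0.18, adjusted p = 0.049). IGF2R was 108, 142, 102.4 and 138 CPM in cyclic and 194, 214 and 243 CPM in pregnant GE (0.81 ± 0.18, adjusted p = 0.058). The quasi-likelihood test called neither, and DESeq2 called both (adjusted p = 3.5e-05 and 0.0017). In GE the summed leukocyte markers were 18.4 to 25.6 CPM in cyclic and 71.0 to 108 CPM in pregnant libraries, and their part in these values was not tested.

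Outside GE the receptors overlapped between the groups. IGF1R in S went from 161 ± 52.9 to 267 ± 65.3 CPM (0.74 ± 0.26, adjusted p = 0.26), and in LE from 424 ± 189 to 555 ± 54.9 CPM with a cyclic range of 193 to 626 CPM. IGF2R in BV held 143, 93.8, 90.3 and 103 CPM in cyclic and 145, 150, 154 and 141 CPM in pregnant gilts (0.47 ± 0.16, adjusted p = 0.091), with cyclic gilt CL128 among the pregnant values. In LE and S its log2 fold changes were -0.10 ± 0.17 and 0.19 ± 0.21. Counted over the members tested, pregnant and cyclic libraries did not overlap for 2 in LE (19.4% of all genes), 4 in GE (22.9%), none in BV (18.2%) and 1 in S (8.81%).

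The pathway around the family was read from 57 related genes in 7 lists. The filtered tables held 47 of them for LE, 41 for GE, 44 for BV and 45 for S. In LE 4 rose and 1 fell, in BV 1 rose, and none was called in GE or S, against the same shares of all genes as above. The calls in LE were 2 of 9 insulin receptor and adaptor genes, 1 of 19 genes of the PI3K, AKT, FOXO and mTOR list, 1 of 5 of the growth hormone receptor arm and 1 of 3 further receptors. None of the 5 binding protein proteases and inhibitors tested in LE was called, nor any of the 5 other proteins with an IGFBP domain. Log2 fold changes of the proteases and inhibitors ran from -0.18 ± 0.50 for ADAM12 to 3.79 ± 0.72 for STC1, with a median of 0.33. STC1 narrowly missed the 1% rate in LE in the quasi-likelihood test (edgeR adjusted p = 0.012). The authors' own test, an edgeR model with robust dispersions, gave STC1 as higher in pregnant LE and S.

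In LE, INSR, the insulin receptor, held 41.2 to 97.9 CPM in cyclic and 168 to 312 CPM in pregnant libraries (1.65 ± 0.29, edgeR adjusted p = 0.0096). GAB1, a docking adaptor of receptor tyrosine kinases, held 51.1 to 124 and 355 to 409 CPM (2.19 ± 0.28, adjusted p = 0.0029). PIK3R1, a regulatory subunit of PI3 kinase, held 204 to 283 and 463 to 585 CPM (1.03 ± 0.18, adjusted p = 0.0087). The groups did not overlap for these genes, which were named because they were called, nor for 19.4% of all genes in LE. STAT5B, a transcription factor downstream of the growth hormone receptor, rose by 1.19 ± 0.20 (adjusted p = 0.0069), and M6PR, the second mannose 6-phosphate receptor, changed by -1.09 ± 0.19 (adjusted p = 0.0086), from 82.2 to 127 CPM in cyclic to 45.2 to 60.0 CPM in pregnant LE. In BV, IRS2, an adaptor of the insulin and IGF1 receptors, rose from 6.05 to 20.4 CPM in cyclic to 31.0 to 61.4 CPM in pregnant libraries (1.88 ± 0.34, adjusted p = 0.017). Leaving out single libraries left between 0 and 5 calls in LE, with none when gilt CL40, PL39 or PL43 was left out, and 1 when gilt CL42, PL139 or PL41 was. The BV call was lost when gilt CL40, CL42, PL139 or PL39 was left out.

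For the 7 members whose 8 group means spanned at least 3 on the log2 scale, the genes most alike over the 31 libraries were taken by Pearson's r of log2 CPM, as a description of libraries that share gilts and compartments. IGFBP4 had the closest companions, KIRREL (r = 0.983), PPP1R18 (0.973) and RARRES2 (0.971). IGF2 followed BGN (0.962), which encodes the matrix proteoglycan biglycan, LOC110261996 (0.954) and CACNA1H (0.954). For IGF1 they were LOC110261648 (0.937), RCN3 (0.936) and CLMP (0.932). For IGFBP5 they were FAM102B (0.944), KYNU (0.938) and PAPPA (0.937), the last of which encodes the protease that cuts IGFBP4 and IGFBP5. IGFBP6 lay nearest SEPT5 (0.930), GALNT16 (0.902) and TIMP1 (0.901), and IGFBP3 nearest RCAN2 (0.911), VEGFC (0.909) and CXCL12 (0.902). IGFBP2 had the weakest likeness, to FOXP1 (0.816), GALNT15 (0.806) and BACH2 (0.793).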

How the data were processed

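RNA from laser-captured LE, GE, BV and S of 8 gilts was analysed as the deposited table of raw counts per gene (30185 genes, 31 libraries). The authors used Trim Galore to clip 5 bases from the 5′ end of reads and Hisat2 for alignment, with Sscrofa11.1 as the genome. Duplicates were removed with NuGEN nudup, reads were counted per gene with QuasR qCount, and genes were filtered on CPM. Tool versions, the CPM limit and the strand setting are not given in the sources used here. The authors' filtered tables held 12002 (LE), 11905 (GE), 11096 (BV) and 11935 (S) genes. Complete endometrium was not analysed here.

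Pregnant and cyclic gilts were compared within each compartment with TMM scaling and the quasi-likelihood test of edgeR 4.0.16 (R 4.3.3), and calls in all compartments used the largest p passing a false discovery rate of 1% in LE. Compartments were compared in 1 fit over 13887 genes with the gilt as a block. Group means use TMM scaling over all libraries, and fold changes come from the fits. The members, the related genes and the markers were chosen with earlier results of these data known. Related genes were named where called, with ADAM12 and STC1 added as the ends of their list. Alternatives were an edgeR model with robust dispersions, DESeq2 1.42.0, RLE scaling, other filters, a false discovery rate of 5%, single groups of gilts, no block and leaving out single libraries or gilts. Functions were tested on simulated data with known changes. Values were handled in Python 3.11.15 with pandas 2.3.3, NumPy 2.4.6 and SciPy 1.17.1, and plotted with matplotlib 3.10.9.

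The gilt numbers in the sample titles pair the compartments of an animal. Deviations from the group means correlated with a median of 0.151 over 45 same-gilt pairs (-0.161 to 0.335), against -0.0491 between gilts, and no 2 libraries held identical counts. Intervals and floors cover counting error only.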

Additional observations from a re-analysis of the deposited data

Results flagged for a closer look

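In 6 of 65 groups of 4 libraries, 1 library stood apart from the other 3 by Dixon's gap ratio, which chance passes in about 1 in 20 groups. IGFBP3 in cyclic S was 49.0 CPM in gilt CL78 against at most 10.4 CPM in the others. IGFBP3 in pregnant S was 23.4 CPM in gilt PL139, the next being 7.97 CPM. IGFBP6 in cyclic GE was 5.19 CPM in gilt CL128 and at most 0.808 CPM in the others. IGFBP5 in cyclic GE was 7.47 CPM in gilt CL42, below 10.8 to 11.5 CPM in the others. IGFBP3 in cyclic GE was 1.61 CPM in gilt CL40 and IGFBP1 in pregnant S was 0.234 CPM in gilt PL139, with 0 in the other libraries of each group.

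IGFBP1 lay outside the filtered tables, yet pregnant LE held 25 counts and pregnant GE 13 counts of it, with 0 counts in cyclic LE and cyclic GE.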

How the results depend on the processing

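Of 1284 single-gene values recomputed under the alternatives, 1184 kept their direction and side of the threshold, 40 lost a call, 25 gained one and 35 changed sign. The cause of these changes was not tested. With 3 or 4 gilts a group, the number of animals limits the precision, and IGFBP1, IGFBP2, IGFBP3 and IGFBP6 rested on few counts in the epithelia.

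With robust dispersions 2, 6, 1 and 2 members were called for pregnancy (LE, GE, BV, S), and 10, 8, 7 and 4 related genes. DESeq2 called 4 members in GE and 1 in S, and 10, 6, 5 and 2 related genes in LE, GE, BV and S. Without a filter 1 related gene was called in GE. At a false discovery rate of 5%, 2 members were called in GE, 10, 2 and 5 related genes in LE, GE and BV, and 1 member for an effect that differed between compartments. That rate called 10.7% (LE), 1.86% (GE), 8.63% (BV) and 0.0335% (S) of all genes, and 6.23% for the differing effect. Between LE and GE 2 members were called in cyclic gilts alone and 2 among genes present in all filtered tables, which also left 5 between GE and S because fewer members could be tested. DESeq2 with the gilt as a block called 1 member between BV and S (10.3% of all genes).

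Leaving out single libraries gave 0 to 1 members in LE, 0 to 1 in GE (1 without pregnant gilt PL39, IGFBP5), and 0 to 5, 0 to 2, 0 to 1 and 0 to 1 related genes in LE, GE, BV and S. Leaving out single gilts gave 2 to 4 members between LE and GE (2 without gilt PL39) and 0 to 1 between BV and S (1 without gilt CL128, IGF1R).

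Pregnancy changes that changed sign were uncalled. IGFBP3 in BV was 0.01 with DESeq2, 0.0058 with RLE scaling and 0.0039 with edgeR's own filter. Leaving out libraries moved IGF1 in LE from -0.58 to 0.10, IGF2R in LE from -0.20 to 0.0016, IGF2 in BV from -0.39 to 0.085, IGFBP2 in BV from -0.16 to 0.69, IGFBP3 in BV from -0.83 to 0.46, IGFBP5 in BV from -0.34 to 0.16 and IGFBP3 in S from -1.47 to 0.53. Leaving out gilts moved LE minus GE from -0.11 to 0.11 for IGF1R and from -0.31 to 0.28 for IGFBP6, and LE minus S from -0.92 to 0.065 for IGFBP2 and from -0.996 to 0.20 for IGFBP3. In cyclic gilts alone, LE minus GE was 0.28 for IGF2R and -0.60 for IGFBP2, and BV minus S was -0.072 for IGF2R. In pregnant gilts alone, LE minus GE was -0.15 for IGF1R and 0.54 for IGFBP6, LE minus BV was -0.10 for IGF2R and 2.0 for IGFBP2, LE minus S was 1.44 for IGFBP2 and 0.27 for IGFBP3, and BV minus S was -0.56 for IGFBP2. IGF1R was -0.037 for LE minus GE both with RLE scaling and, at -0.037, with DESeq2.

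With no replicate block the members called were 4 between LE and GE, 5 between LE and BV, 6 between LE and S, 6 between GE and BV, 8 between GE and S and 0 between BV and S, and 0 for the effect that differed between compartments. All genes were called at 40.1%, 47.5%, 48.5%, 56.9%, 57.5%, 5.94% and 1.4% in the same order. The calls lost were IGF1R between LE and BV (adjusted p = 0.013) and IGF1R, IGF2R and IGFBP2 between GE and BV (adjusted p = 0.032, 0.012 and 0.013), and IGFBP6 changed sign to 0.092 for LE minus GE. Within a compartment no paired analysis was possible because cyclic and pregnant gilts were different animals.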
